A study of Mus musculus with 18 samples.

Results

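The mitogen-activated protein (MAP) kinase phosphatases are 10 catalytically active dual-specificity phosphatases that switch off MAP kinases, encoded by Dusp1, Dusp2, Dusp4, Dusp5, Dusp6, Dusp7, Dusp8, Dusp9, Dusp10 and Dusp16. The genes were taken by name and matched to the identifiers of the count table through GENCODE, and the 10 members are 10 of 55414 genes in that table and 10 of the 21772 genes with at least 10 counts over all libraries, so every member passed the filter. Counts are of read pairs assigned to a gene. The cells were C2C12, an established mouse myoblast line, transfected at confluence with a pool of siRNAs that was non-targeting (siNtc) or directed at Erk3 (gene Mapk6) or at Mk5 (gene Mapkapk5), differentiated into myotubes for 6 days, and then given serum-free medium for 16 h. That medium held palmitic acid bound to BSA at 0.5 mM (PA) or BSA alone (BSA), which makes 6 groups of 3 libraries, siNtc BSA, siErk3 BSA, siMk5 BSA, siNtc PA, siErk3 PA and siMk5 PA. All groups had therefore been transfected, deprived of serum and exposed to BSA. Whether the libraries of a group came from separate cultures is not stated, so the p-values measure only the spread between these libraries, which may be technical, and a single cell line stands behind all of them.

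A conventional MAP kinase is activated when a MAP kinase kinase phosphorylates a threonine and a tyrosine in its activation loop, and a MAP kinase phosphatase removes both phosphates. Members differ in where they act and on what. Dusp1, Dusp2, Dusp4 and Dusp5 encode nuclear enzymes whose genes are induced by growth factors and stress, Dusp6, Dusp7 and Dusp9 encode cytoplasmic enzymes selective for ERK1 and ERK2, and Dusp8, Dusp10 and Dusp16 encode enzymes that prefer JNK and p38. Several of these genes, Dusp5 and Dusp6 above all, are themselves transcribed in response to ERK activity, so that their mRNA belongs to a negative feedback loop.

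Totals per library ran from 13041979 to 28496727 assigned read pairs (median 22417470), with siNtc BSA 1 the shallowest, and no 2 replicates were alike within sampling noise. Mapk6 was at 129 to 135 CPM (counts scaled to the size of the library, with TMM factors) in siNtc BSA and 55.2 to 60.3 in siErk3 BSA, and at 215 to 244 in siNtc PA and 109 to 131 in siErk3 PA. Its log2 fold change after siErk3 was −1.2 with BSA (edgeR FDR = 1.77e-14) and −0.95 with PA (edgeR FDR = 1.21e-12). Mapkapk5 shares 56.4% of its exonic bases with the same-strand gene Gm42878, so its count is partial, at 27 to 86 in a library. It was lower after siMk5 without passing the test (log2 fold change −0.61 in BSA and −0.49 in PA, edgeR FDR = 0.469 for both, edgeR unadjusted p = 0.0064 and 0.0117). Its levels were 2.32 to 2.54 CPM in siNtc BSA and 1.18 to 2.01 in siMk5 BSA. With PA they were 2.52 to 3.92 and 2.17 to 2.43 CPM. The paper reports a downward trend of Mk5 mRNA that missed its FDR threshold. At the protein level the paper reports, from Western blots, efficient silencing of both kinases and less Erk3 after Mk5 silencing. All 10 markers of myotubes were present in every library, with Acta1 at 2830 to 3710 CPM and Myog at 310 to 499 CPM. Of the markers of other cells, Plin1 and Cidec of adipocytes and Adgre1 of macrophages were at 0 in all 18 libraries, the 3 immune markers summed to at most 1.72 CPM, nearly all of it Cd68, and the 2 endothelial markers to at most 0.944 CPM.

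In GRCm39 coordinates of the count table the members lie on 10 different chromosomes, at chr17:26724564-26781102 on the minus strand (Dusp1), chr2:127178079-127180296 on the plus strand (Dusp2), chr8:35274451-35287048 on the plus strand (Dusp4), chr19:53517540-53530862 on the plus strand (Dusp5) and chr10:99099093-99103351 on the plus strand (Dusp6). Dusp7 lies at chr9:106245831-106252923 (plus), Dusp8 at chr7:141633227-141649580 (minus), Dusp9 at chrX:72683025-72687120 (plus), Dusp10 at chr1:183745499-183807833 (plus) and Dusp16 at chr6:134692431-134769588 (minus). No member shares exonic bases with another gene on its own strand. Dusp5 has 547 exonic bases opposite Gm50394, Dusp8 has 66 opposite Gm32786 and Dusp1 has 11 opposite Ergic1, and the counting was strand-specific.

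With BSA, per exonic length (TPM, counts per base scaled to the library, median of the 9 BSA libraries), Dusp6 had the highest level at 46.7, followed by Dusp4 at 34.5, Dusp10 at 29, Dusp7 at 26.6 and Dusp1 at 21.9. Dusp8 (13.8 TPM), Dusp16 (10.9) and Dusp5 (10.4) formed a lower set, and Dusp9 (4.37) and Dusp2 (3.9) were the lowest. The ranges of the 9 libraries separated Dusp1 from Dusp8 and Dusp5 from Dusp9, whereas those of the other neighbours in this order overlapped. Within each of the 9 BSA libraries, however, Dusp6 was above Dusp4, Dusp4 above Dusp10 and Dusp8 above Dusp16. With PA the order opened with Dusp4 (195 TPM), Dusp6 (108) and Dusp5 (50.6). They were followed by Dusp10 (42), Dusp7 (34.4), Dusp1 (25.2), Dusp8 (18.6), Dusp16 (16.8), Dusp2 (9.42) and Dusp9 (8.77). Here the ranges of Dusp4 and Dusp6 were apart, as were those of Dusp6 and Dusp5 (lowest 82.3 against highest 82), Dusp7 and Dusp1, and Dusp16 and Dusp2. Within each PA library Dusp10 was also above Dusp7, and Dusp1 above Dusp8. Dusp5 moved from the 8th place to the 3rd, and Dusp4 passed Dusp6. The 10 members summed to 174 to 217 TPM in the BSA libraries and to 416 to 648 TPM in the PA libraries. The lowest of the BSA sums were those of siMk5 BSA, at 174 to 188 TPM.

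**Figure D1:**
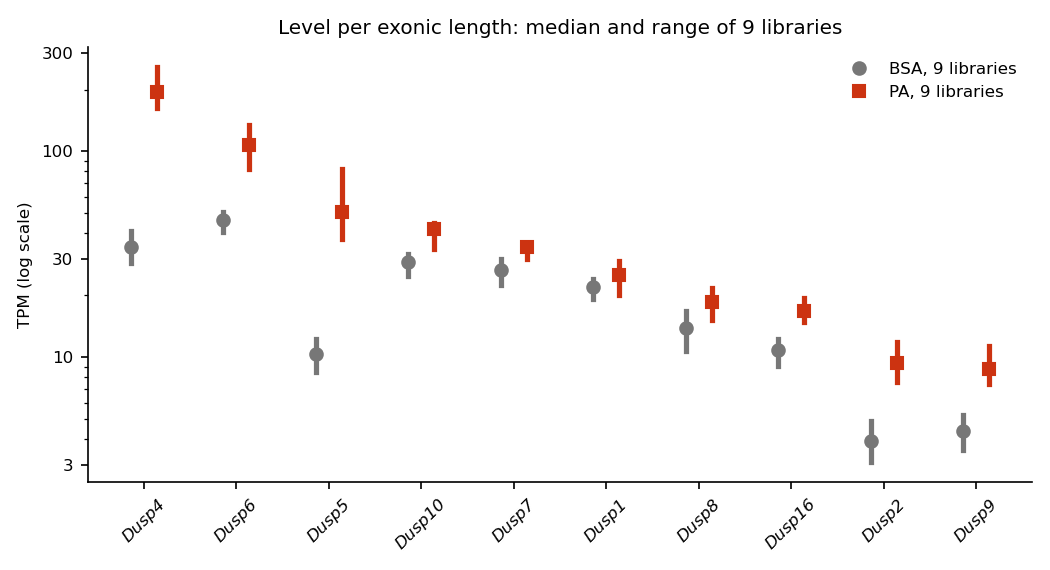
Level per exonic length of the 10 members (TPM, log axis), with the median (symbol) and the range (bar) of the 9 BSA libraries in grey and the 9 PA libraries in red, ordered by the PA median. Dusp4, Dusp6 and Dusp5 lead under PA, and Dusp5 is the member that changes place most, from 10.4 to 50.6 TPM.

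The first question was how palmitate exposure changed the mRNA of the MAP kinase phosphatases in cells with the control siRNA. Palmitate raised the mRNA of 9 of the 10 members in siNtc cells, where a change means an edgeR FDR below 0.05 and a fold change above 1.3, while 15.5% of all genes tested rose by the same rule. The median log2 fold change was 0.88 over the members and −0.03 over all genes. Dusp1, the remaining member, passed the FDR but not the fold limit. In siErk3 cells 10 of 10 members rose (15.8% of all genes rose) and in siMk5 cells 8 of 10 (15.1% of all genes), where Dusp1 and Dusp7 missed the fold limit, with medians of 1.03 and 0.8. In each of the 3 comparisons the 3 PA libraries were above the 3 BSA libraries for 10 of 10 members, against 26.9%, 27.5% and 27.3% of all genes. These 3 comparisons share no library.

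Marker sets other than that of myotubes moved in the same comparison, in cultures of a single cell line. The 5 markers of undifferentiated or cycling myoblasts (Pax7, Myf5, Myod1, Mki67 and Top2a) summed to 834 to 897 CPM in the BSA libraries and 335 to 448 CPM in the PA libraries. The 4 fibroblast markers, almost all of it Col1a1, summed to 1400 to 1770 CPM and 440 to 777 CPM, and the defining marker Thy1 was at 0 in 11 libraries. The 10 myotube markers summed to 9750 to 12200 CPM with BSA and 9130 to 10700 CPM with PA. Fewer cells of a type and less RNA per cell cannot be told apart in such bulk samples, and the part of these cells in the phosphatase values was not tested. The share of the 18S ribosomal RNA gene Rn18s-rs5 was 1.5% to 12.87% in the BSA libraries and 1.71% to 6.77% in the PA libraries. With BSA it differed by siRNA, at 2.56% to 7.17% in siNtc, 1.5% to 2.96% in siErk3 and 8.39% to 12.87% in siMk5. With that share as a covariate the members changed were 9 in siNtc, 9 in siErk3 and 9 in siMk5.

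**Figure D2:**
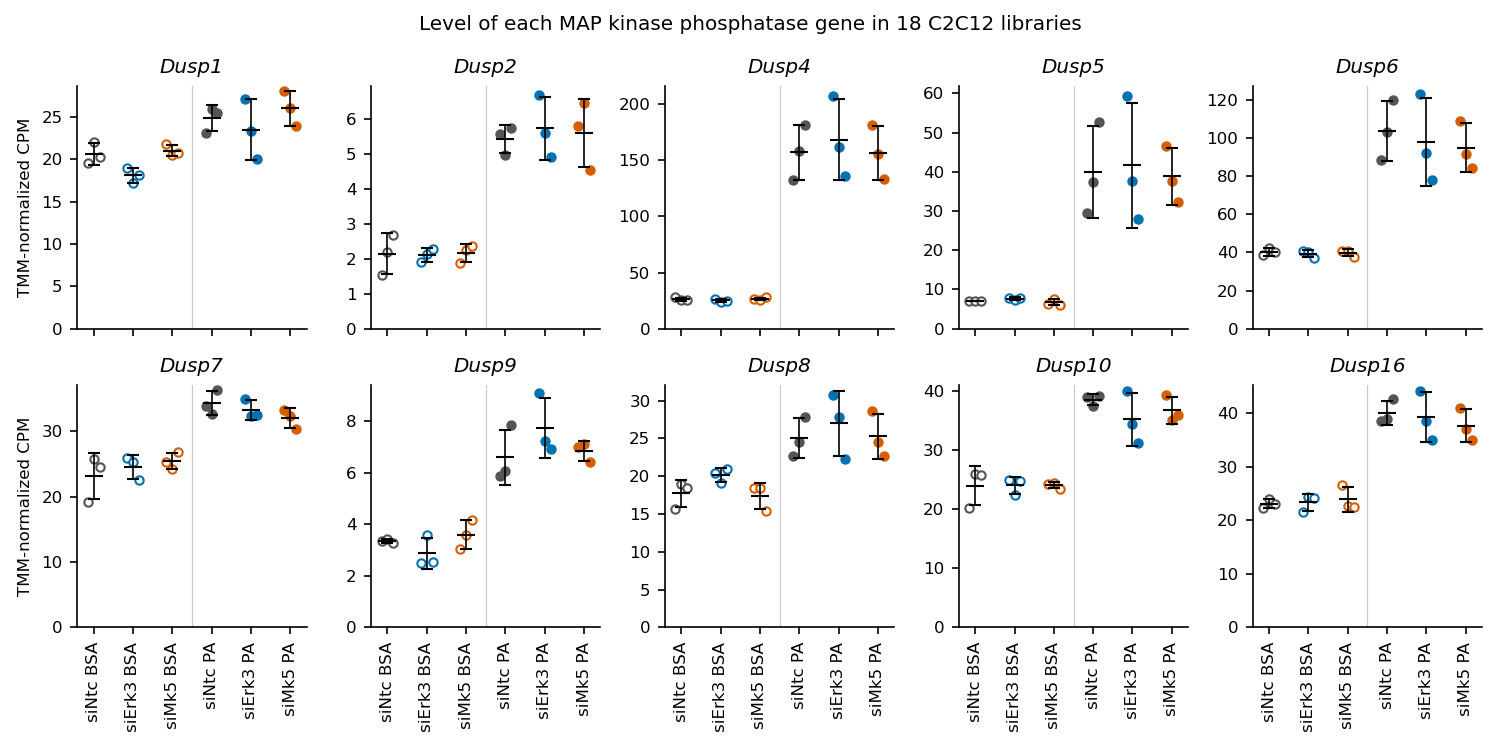
TMM-normalized CPM of each member in the 18 libraries, with 3 points per group in replicate order (open, BSA; filled, PA) and the mean ± SD in black. The PA points lie above the BSA points of the same siRNA for all 10 members, and the widest spread under PA relative to the level is that of Dusp5, from 28 to 59.2 CPM in siErk3 PA.

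Among the inducible nuclear phosphatases, Dusp4 and Dusp5 rose most of the whole family. Dusp4 encodes MKP-2, which acts on ERK and JNK in the nucleus. It was at 28, 25.7 and 25.4 CPM in siNtc BSA and 132, 158 and 181 CPM in siNtc PA. The siErk3 libraries had 26.2, 24.1 and 25.1 CPM with BSA and 207, 162 and 136 CPM with PA, and the siMk5 libraries 26.3, 25.3 and 27.8 CPM and then 181, 156 and 133 CPM. The highest of the 9 BSA libraries was thus at 28 CPM and the lowest of the 9 PA libraries at 132 CPM. The log2 fold changes were 2.58 ± 0.12 (SE) in siNtc, 2.75 ± 0.12 in siErk3 and 2.57 ± 0.12 in siMk5, with edgeR FDRs of 1.36e-17, 1.35e-18 and 1.37e-17. Between 2.5% and 3.13% of all genes tested had a larger log2 fold change in the same comparison.

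Dusp5, a nuclear phosphatase selective for ERK, had 7.02, 7.04 and 7.09 CPM in siNtc BSA and 29.6, 37.4 and 52.7 CPM in siNtc PA. With siErk3 it went from 7.82, 7.21 and 7.87 CPM to 59.2, 37.6 and 28 CPM, and with siMk5 from 6.41, 7.6 and 6.14 CPM to 46.6, 37.6 and 32.3 CPM. No PA library came near the BSA range, while the PA libraries of a group differed by up to 2.11-fold among themselves. The log2 fold changes were 2.49 ± 0.21, 2.45 ± 0.2 and 2.54 ± 0.21 in siNtc, siErk3 and siMk5 (edgeR FDR = 2.30e-11, 6.43e-12 and 1.55e-11).

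Dusp2, whose product is best known from activated immune cells, was scarce. Its levels were 1.55, 2.21 and 2.7 CPM in siNtc BSA, 1.9, 2.15 and 2.29 in siErk3 BSA and 1.88, 2.26 and 2.37 in siMk5 BSA, and the lowest value, in siNtc BSA 1, rested on 22 counts. With PA they were 5.58, 4.97 and 5.76 CPM in siNtc, 6.7, 5.61 and 4.91 in siErk3 and 5.8, 6.48 and 4.54 in siMk5. The groups were well apart despite the low counts, and Dusp2 rose by a log2 fold change of 1.29 ± 0.17, 1.44 ± 0.16 and 1.38 ± 0.17 (edgeR FDR = 1.53e-07, 4.99e-09 and 3.77e-08).

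Dusp1 encodes MKP-1, which acts on p38, JNK and ERK and is the classical immediate early member. It moved least. Its levels were 19.6, 22.1 and 20.3 CPM in siNtc BSA, 19, 17.2 and 18.2 in siErk3 BSA and 21.8, 20.5 and 20.8 in siMk5 BSA. With PA it had 23.1, 26 and 25.5 CPM in siNtc, 27.2, 23.4 and 20 in siErk3 and 28.1, 26.1 and 23.9 in siMk5. The groups did not overlap, but the gaps were small, 22.1 to 23.1 CPM in siNtc for example. The log2 fold changes of 0.26 ± 0.09, 0.38 ± 0.08 and 0.31 ± 0.08 had edgeR FDRs of 0.0127, 0.000306 and 0.00312, and the fold changes were 1.2, 1.3 and 1.24. The siErk3 value lay just above the 1.3 limit before rounding and was no longer called without siErk3 BSA 2 (log2 0.33), siErk3 BSA 3 (0.37) or siErk3 PA 1 (0.27), with the replicate number as a block (0.37), or among genes with at least 10 counts in every library (0.37).

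The 3 cytoplasmic ERK phosphatases rose in siNtc and siErk3 and 2 of the 3 did in siMk5. Dusp6 encodes MKP-3, the ERK-selective enzyme whose mRNA is widely used as a readout of ERK signaling. It was at 38.4, 42.1 and 40.2 CPM in siNtc BSA and 88.4, 103 and 120 CPM in siNtc PA, at 40.6, 40.3 and 37.2 CPM in siErk3 BSA and 123, 92.4 and 78.2 CPM in siErk3 PA, and at 40.6, 41 and 37.7 CPM in siMk5 BSA and 109, 91.6 and 84.5 CPM in siMk5 PA. All 9 BSA libraries lay within 37.2 to 42.1 CPM and all 9 PA libraries within 78.2 to 123 CPM. Log2 fold changes were 1.36 ± 0.11, 1.31 ± 0.11 and 1.26 ± 0.11 (edgeR FDR = 1.12e-11, 1.26e-11 and 5.99e-11).

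Dusp9 (MKP-4) is X-linked and was low, with 3.37, 3.42 and 3.26 CPM in siNtc BSA, 2.49, 3.58 and 2.54 in siErk3 BSA and 3.05, 3.57 and 4.18 in siMk5 BSA. Its PA levels were 5.89, 6.07 and 7.83 CPM in siNtc, 9.07, 7.24 and 6.9 in siErk3 and 7.01, 7.13 and 6.4 in siMk5. The siErk3 change was the largest of the 3 in value, 1.43 ± 0.14 on the log2 scale against 0.97 ± 0.15 in siNtc and 0.94 ± 0.15 in siMk5 (edgeR FDR = 5.78e-10, 2.97e-06 and 3.25e-06). Dusp7 (MKP-X) had 19.2, 25.8 and 24.5 CPM in siNtc BSA and 33.9, 32.7 and 36.3 CPM in siNtc PA. Its levels were 22.5 to 25.9 CPM in siErk3 BSA against 32.4 to 35 CPM in siErk3 PA, and 24.3 to 26.8 CPM in siMk5 BSA against 30.3 to 33.3 CPM in siMk5 PA. It rose by 0.55 ± 0.08 in siNtc and 0.44 ± 0.08 in siErk3 (edgeR FDR = 7.33e-07 and 1.14e-05), while the siMk5 value of 0.33 ± 0.08 (edgeR FDR = 0.000675) was a 1.26-fold difference and below the fold limit. The siErk3 call of Dusp7 was lost without siErk3 BSA 3 and with the 18S share as a covariate (0.37 in both).

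The 3 phosphatases that prefer JNK and p38 rose in all 3 comparisons and by less than most of the others, with medians of 0.67, 0.55 and 0.61 beside 1.89, 1.94 and 1.96 for the 4 inducible nuclear members. Those 4 spanned 0.26 to 2.58 in siNtc, and Dusp1 among them rose less than each of these 3 in every comparison. The medians of the 3 cytoplasmic members were 0.97, 1.31 and 0.94. Dusp16 (MKP-7) had 22.3, 24 and 23 CPM in siNtc BSA and 38.5, 39 and 42.7 CPM in siNtc PA, and its log2 fold changes were 0.79 ± 0.08, 0.75 ± 0.08 and 0.65 ± 0.08. Dusp10 (MKP-5), a phosphatase studied in muscle regeneration, had 20.1, 25.9 and 25.8 CPM in siNtc BSA and 38.9, 37.4 and 39.1 CPM in siNtc PA, with log2 fold changes of 0.67 ± 0.08, 0.55 ± 0.08 and 0.61 ± 0.08. Dusp8 had 15.7, 19 and 18.5 CPM and then 22.7, 24.6 and 27.9 CPM, with 0.48 ± 0.1, 0.42 ± 0.1 and 0.54 ± 0.1. In siErk3 cells Dusp16 ranged from 21.6 to 24.4 CPM with BSA and from 35 to 44.2 CPM with PA, Dusp10 from 22.4 to 24.9 and from 31.1 to 40 CPM, and Dusp8 from 19.1 to 21 and from 22.3 to 30.8 CPM. In siMk5 cells the ranges were 22.5 to 26.6 and 35 to 41 CPM for Dusp16, 23.4 to 24.4 and 35 to 39.2 CPM for Dusp10, and 15.4 to 18.4 and 22.7 to 28.6 CPM for Dusp8. Of these 3, Dusp8 came closest to an overlap, with 21 and 22.3 CPM as the nearest values in siErk3. The largest edgeR FDR among these 9 values was 0.000512, that of Dusp8 in siErk3. That call was lost without siErk3 BSA 2 (0.38) or siErk3 PA 1 (0.32).

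**Figure D3:**
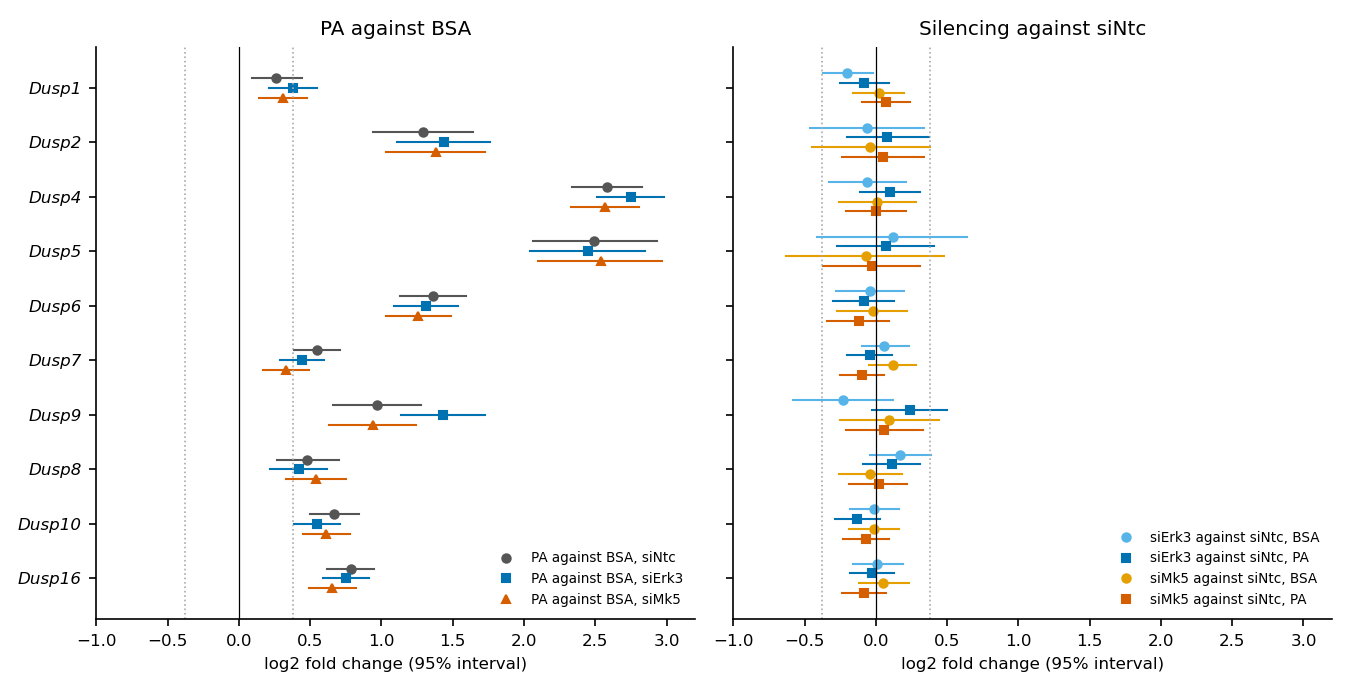
Log2 fold change and 95% interval of each member for PA against BSA in siNtc, siErk3 and siMk5 cells (left) and for silencing against siNtc in each medium (right), with dotted lines at a 1.3-fold change. On the left every interval lies above 0, from Dusp1 at 0.26 to Dusp4 at 2.58 in siNtc, and on the right every interval but that of Dusp1 in siErk3 with BSA includes 0.

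The second question was whether silencing of Erk3 or Mk5 altered these mRNAs. By edgeR none of the 10 members changed in siErk3 against siNtc with BSA (0.785% of all genes changed) or with PA (0.556%), nor in siMk5 against siNtc with BSA (0.0643%) or with PA (0.547%), and DESeq2 also called 0 in each. At an unadjusted p below 0.05 there was 1 member in siErk3 with BSA, where 10.6% of all genes were below it, and 0 in the other 3 comparisons (8.28% of all genes in siErk3 with PA, and 6.89% and 6.79% in siMk5 with BSA and PA). That member was Dusp1, at 17.2 to 19 CPM in siErk3 BSA and 19.6 to 22.1 CPM in siNtc BSA, a log2 difference of −0.2 with a 95% interval from −0.37 to −0.02 (edgeR unadjusted p = 0.0309, edgeR adjusted p = 0.405). The groups did not overlap for Dusp1, and neither did they for Dusp5 and Dusp8, which were higher in siErk3 BSA (11.5% of all genes were higher without overlap and 5.94% lower). The members' log2 differences lay between −0.23 and 0.24 over the 4 comparisons.

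How much these data can say of the members differed between them. The 95% interval lay within a 1.3-fold change either way for 6 members in siErk3 with BSA, 8 in siErk3 with PA, 7 in siMk5 with BSA and 10 in siMk5 with PA. All intervals rest on 1 estimate of spread per gene, shared by the BSA and PA libraries. The SD of log2 CPM within groups was 0.101 in BSA and 0.424 in PA for Dusp5. It was 0.0681 and 0.252 for Dusp4 and 0.0677 and 0.253 for Dusp6. For these members the intervals may be too narrow with PA and too wide with BSA. The widest intervals were those of Dusp5, from −0.41 to 0.64 in siErk3 with BSA and from −0.63 to 0.48 in siMk5 with BSA, followed by those of the scarce Dusp2, from −0.46 to 0.34 and from −0.45 to 0.38. The Dusp5 width is not a scatter of its BSA libraries, whose SD was below that of Dusp2 (0.257). The shared estimate takes in the PA spread of Dusp5. For Dusp4 with PA the differences were 0.1 (−0.11 to 0.31) with siErk3 and 0 (−0.21 to 0.21) with siMk5, and for Dusp6 −0.08 (−0.3 to 0.13) and −0.12 (−0.34 to 0.09). The comparisons with siErk3 and with siMk5 share the siNtc libraries.

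Set directly against each other, siErk3 and siMk5 differed for 0 of 10 members with BSA (0.588% of all genes) and 0 with PA (1.03%) by edgeR, and DESeq2 gave 0 as well. At an unadjusted p below 0.05 there were 2 members with BSA (8.49% of all genes) and 0 with PA (10.2%). These were Dusp1, lower in siErk3 BSA by a log2 difference of −0.22 (edgeR unadjusted p = 0.0175, edgeR adjusted p = 0.412), and Dusp8, higher by 0.21 (edgeR unadjusted p = 0.0495, edgeR adjusted p = 0.586). The 18S share was 1.5% to 2.96% in siErk3 BSA and 8.39% to 12.87% in siMk5 BSA, and its part in these differences was not tested.

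Whether silencing altered the response to palmitate was tested by the interaction of siRNA and medium. For siErk3 with PA and for siMk5 with PA 0 of 10 members passed by edgeR and by DESeq2 (0.0367% and 0.211% of all genes by edgeR). At an unadjusted p below 0.05 there was 1 member for siErk3 (6.1% of all genes) and 0 for siMk5 (7.43%). It was Dusp9, whose log2 response was 0.46 larger in siErk3 than in siNtc cells, with a 95% interval from 0.03 to 0.9 (edgeR unadjusted p = 0.0384, edgeR adjusted p = 0.771). For Dusp4 the responses differed by 0.16 (−0.18 to 0.5) with siErk3 and by −0.01 (−0.36 to 0.33) with siMk5. For Dusp5 the intervals were wider, −0.67 to 0.58 and −0.61 to 0.7. The Dusp7 response, called in siNtc and siErk3 but not in siMk5, differed between siMk5 and siNtc by −0.21 (−0.44 to 0.01, edgeR FDR = 0.677), and the Dusp1 response, called in siErk3 only, differed between siErk3 and siNtc by 0.12 (−0.13 to 0.36, edgeR FDR = 0.923).

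The spread between replicates under palmitate was not the same for all members. As the SD of log2 CPM within groups, pooled over the 3 groups of a medium, it was 0.101 for Dusp5 in BSA and 0.424 in PA, a ratio of 4.2. For Dusp6 it was 0.0677 and 0.253 (3.74), and for Dusp4 0.0681 and 0.252 (3.7). Dusp1 (2.12), Dusp8 (1.5) and Dusp16 (1.25) also had a larger spread in PA, whereas Dusp10 (0.906), Dusp9 (0.87), Dusp2 (0.802) and Dusp7 (0.459) had a smaller one. The count of 6 of 10 members stands beside 51.8% of all genes tested, and the median SD of the 10553 genes with a mean of at least 5 CPM was 0.0733 in BSA and 0.0761 in PA. In PA 0.256% of these genes had a larger SD than Dusp5, 2.03% than Dusp6 and 2.09% than Dusp4, while in BSA it was 25.1%, 56.8% and 56.5%. With any 1 library omitted, the ratio stayed between 3.37 and 8.79 for Dusp5, the highest without siMk5 BSA 2, between 2.95 and 4.21 for Dusp6 and between 3.15 and 4.39 for Dusp4, the lowest of each without siErk3 PA 1. For Dusp2, Dusp9, Dusp10 and Dusp16 the ratio passed 1 in the other direction without 1 of the libraries, reaching 1.27 for Dusp2 and 2.12 for Dusp10 without siNtc BSA 1, 1.29 for Dusp9 without siErk3 BSA 2 and 0.984 for Dusp16 without siErk3 PA 1. In BSA Dusp5 rested on 100 to 220 counts in a library, so counting error enters its SD and ratio, and that part was not estimated. With 3 libraries in a group these SDs are descriptions, and no test was made.

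**Figure D4:**
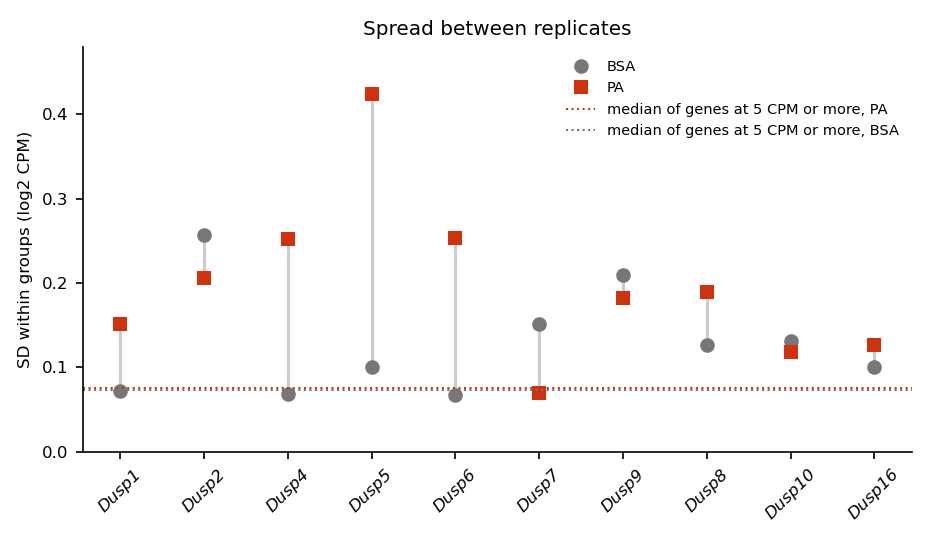
SD of log2 CPM within groups, pooled over the 3 groups of each medium, for each member in BSA (grey circles) and PA (red squares). Dotted lines mark the median of the 10553 genes with a mean of at least 5 CPM (0.0733 in BSA and 0.0761 in PA), and Dusp5, Dusp4 and Dusp6 stand highest above the PA line relative to their BSA values.

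The order of the libraries under PA was then compared between members. Within its group, siNtc PA 3 was the highest library for Dusp4, Dusp5 and Dusp6 and siNtc PA 1 the lowest, and in both siErk3 PA and siMk5 PA library 1 was the highest and library 3 the lowest. In log2 deviations from the group mean, Dusp5 was at −0.39, −0.05 and 0.44 in siNtc PA, 0.58, −0.08 and −0.5 in siErk3 PA, and 0.28, −0.03 and −0.25 in siMk5 PA. Dusp4 was at −0.24, 0.02 and 0.21, then 0.32, −0.03 and −0.28, and then 0.22, 0.01 and −0.22. Among the other members, Dusp1 was highest in siNtc PA 2, and Dusp2 and Dusp9 were highest in siMk5 PA 2. All 10 members were above their group's mean in siNtc PA 3, siErk3 PA 1 and siMk5 PA 1 and all 10 below it in siErk3 PA 3 and siMk5 PA 3. The same count was not made over the other genes that rose with PA.

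Over the 9 PA libraries the deviations of Dusp4 and Dusp5 correlated with Pearson's r = 0.98 (Spearman's rho = 0.97), those of Dusp4 and Dusp6 with r = 0.99 (rho = 0.98) and those of Dusp5 and Dusp6 with r = 0.99 (rho = 0.98). Without the 2 libraries farthest from the median r was 0.96, 0.98 and 0.99. Of the 45 pairs of members 45 had a positive r in PA, from 0.61 to 0.99 with a median of 0.83, and 28 in BSA, from −0.67 to 0.8 with a median of 0.09. The points of such a correlation share library, depth and scaling. The pattern was not particular to the phosphatases. The deviations of Dusp5 in PA had r above 0.9 with 9% and below −0.9 with 7.35% of 10544 other genes, and in BSA with 0.18% and 0.114%. The share of Rn18s-rs5 was 5.32%, 6.12% and 6.43% in siNtc PA 1 to 3, 3.74%, 5.87% and 6.77% in siErk3 PA and 4.34%, 1.71% and 6.69% in siMk5 PA, so the high library for Dusp5 had the largest share in siNtc PA and the smallest in siErk3 PA. Its part in the spread was not tested.

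**Figure D5:**
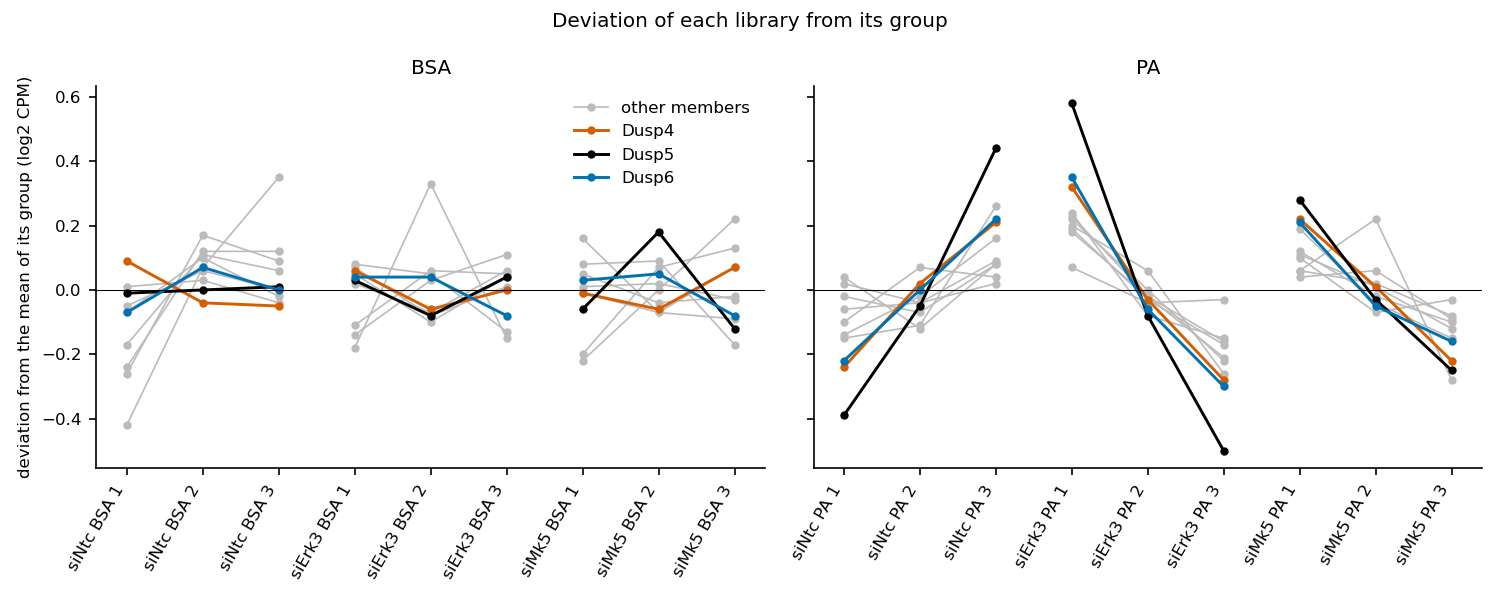
Deviation of each library from the mean of its group (log2 CPM) for the 10 members, with BSA on the left and PA on the right and lines joining the 3 libraries of a group. Under PA, Dusp4 (orange), Dusp5 (black) and Dusp6 (blue) run in parallel, with Dusp5 between −0.5 and 0.58, and the other members (grey) follow in the same direction in most libraries.

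Of the promoters, those of Dusp5 and Dusp6, members that moved together, and of Dusp1, which moved least, are shown. RefSeq's promoter table (GRCm38.p6) held 8 of the 10 members, and Dusp4 and Dusp9 were not matched. The 250 bases before the start of each gene were found unchanged in GRCm39, and their positions are given in that build. Capitals mark matches to the CArG box, bound by serum response factor, and to the full cAMP response element.
Dusp5 (chr19:53517326-53517575, plus strand): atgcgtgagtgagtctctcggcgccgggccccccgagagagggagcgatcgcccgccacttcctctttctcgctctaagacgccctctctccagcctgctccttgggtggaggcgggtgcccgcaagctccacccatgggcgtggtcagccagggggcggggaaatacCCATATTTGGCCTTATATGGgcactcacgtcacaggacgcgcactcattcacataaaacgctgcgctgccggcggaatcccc
Dusp6 (chr10:99098843-99099092, plus strand): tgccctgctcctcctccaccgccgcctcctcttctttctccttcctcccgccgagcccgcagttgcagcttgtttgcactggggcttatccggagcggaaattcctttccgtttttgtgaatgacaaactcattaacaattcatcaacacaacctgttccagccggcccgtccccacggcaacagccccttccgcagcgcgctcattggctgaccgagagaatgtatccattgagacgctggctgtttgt
Dusp1 (chr17:26727447-26727696, minus strand): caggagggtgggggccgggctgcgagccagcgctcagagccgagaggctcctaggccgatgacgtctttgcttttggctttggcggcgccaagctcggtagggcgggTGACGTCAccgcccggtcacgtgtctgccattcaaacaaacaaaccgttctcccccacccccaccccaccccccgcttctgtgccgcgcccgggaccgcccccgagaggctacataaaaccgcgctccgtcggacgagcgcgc

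The Dusp5 window holds 2 CArG boxes that touch, at 82 to 73 and at 72 to 63 bases before the start, a motif found in 1.63% of 32851 promoters of 300 bases (250 before and 50 after the start) and in no other of the 8 members. The Dusp1 window holds the full cAMP response element (tgacgtca) at 143 to 136 bases before the start, and Dusp8 holds 2, at 107 to 100 and 63 to 56, against 1.79% of promoters. The short cAMP site (tgacg), which lies within each full site, was in 5 of the 8 members and 20.8% of promoters, the E-box (cacgtg) in Dusp1 and Dusp2 and 7.15%, the GC box (gggcgg) in 7 of the 8 and 35.7%, the CCAAT box (ccaat) in 5 of the 8 and 37.4%, and the ETS core (ggaagt) in Dusp5 and 23.8%. The remaining motifs were in none of the 8 windows. These were the AP-1 site (tgactca, 5.2% of promoters), the longer ETS site (ccggaag, 8.86%), the ATF4 site (tgatgnaa, 3.97%), the NF-kappaB site (0.411%), the TATA box (tataaa, 13.6%), the FOXO site (tgtttac, 3.65%), the TCF site (ctttgat, 3.73%) and the STAT site (ttcnnngaa, 8.3%). Both strands were searched for all 15 motifs. The Dusp1 start in RefSeq lies 53656 bases from the start of the gene in the count table, which holds a longer transcript. For Dusp10 that distance is 21079 bases and for Dusp8 559, and for the others it is at most 36 (Dusp5).

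Several of the phosphatase genes are induced by ERK signaling, and several of the proteins damp it. Other genes of that pathway were therefore read in the same comparisons. ERK activity itself was not measured in these libraries. Of 20 ERK output genes other than the members, 17 changed with PA in siNtc cells, 15 higher and 2 lower, with a median log2 fold change of 0.72 (15.5% of all genes rose and 15.1% fell). In siErk3 cells 13 rose and 3 fell (15.8% and 16.3% of all genes) and in siMk5 cells 14 rose and 3 fell (15.1% and 14.6%). Ier3, an immediate early response gene, rose by 3.08 ± 0.14 in siNtc, Fosl1, an AP-1 subunit, by 3.65 ± 0.18, Myc by 2.06 ± 0.1 and the ETS factor Etv5 by 1.27 ± 0.07 (largest edgeR FDR 1.99e-16). The genes that fell, named after their values were seen, were Egr3 (−0.4) and Epha4 (−0.44) in siNtc, and Egr3 (−0.4 and −0.43), Epha4 (−0.5 and −0.42) and Srf (−0.42 and −0.39) in siErk3 and siMk5.

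Of 9 feedback inhibitors of other families, 5 rose in siNtc, 3 in siErk3 and 4 in siMk5, where 15.5%, 15.8% and 15.1% of all genes rose, and none fell. Spry4, a Sprouty protein that restrains receptor signaling to Ras, went from 10.1 ± 0.0961 CPM (SD, n = 3) in siNtc BSA to 38.6 ± 5.95 CPM in siNtc PA, a log2 fold change of 1.93 ± 0.12. Errfi1, an inhibitor of the EGF receptor, rose by 1.5 ± 0.1 and Spred1 by 0.42 ± 0.05 in siNtc, and Spry2 rose by 0.72 ± 0.09, 0.76 ± 0.09 and 0.73 ± 0.09 in the 3 comparisons (largest edgeR FDR of these 1.14e-07). The others, named after their values were seen, were Rasa1 in siNtc (0.41) and Rasa2 in siMk5 (0.53).

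Of 13 genes of the MAP kinase family, 3 changed in siNtc, 3 in siErk3 and 4 in siMk5, where 30.6%, 32.1% and 29.7% of all genes tested changed either way. The list takes in Mapk6 (Erk3), which the paper calls atypical, and whether each kinase is a substrate of the phosphatases was not examined. Mapk3, which encodes ERK1, fell by 0.6, 0.7 and 0.66 on the log2 scale in siNtc, siErk3 and siMk5 (largest edgeR FDR 8.25e-10), from 85 ± 7.98 to 56.4 ± 2.42 CPM (SD, n = 3) in siNtc. Mapk6 itself, the siErk3 target, rose with PA by 0.81, 1.06 and 0.74, Mapk7 (ERK5) by 0.43 in siNtc and 0.4 in siMk5 and Mapk12 (p38 gamma) by 0.44 in siMk5, and Mapk4 (ERK4) fell by 0.46 in siErk3. Of 7 MAP kinase kinases, 3 changed in each comparison. Map2k1 (MEK1) rose by 0.84, 0.8 and 0.77 and Map2k3, an activator of p38, by 0.69, 0.62 and 0.58, whereas Map2k6, which also activates p38, fell by 1, 1.25 and 1.36 from 2.26 ± 0.0549 CPM in siNtc BSA to 1.13 ± 0.496 CPM in siNtc PA.

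Most dual-specificity phosphatases outside the family lack the MAP kinase binding domain. Of 16 tested, 2 changed in siNtc, 8 in siErk3 and 3 in siMk5 (30.6%, 32.1% and 29.7% of all genes), and their medians were 0.05, −0.04 and 0.01. Dusp18 rose by 0.66, 0.62 and 0.57 and Dusp23 by 1.17, 1.02 and 1.05, while Dusp19 (−0.66 in siErk3 and −0.42 in siMk5), Dusp28 (−0.57 in siErk3) and Styxl2 (−0.43 in siErk3) fell. The 8 in siErk3 were 4 higher and 4 lower, and whether that count differs from the 2 in siNtc was not tested. They include Dusp26 (mean 0.125 CPM with PA and 0 with BSA) and Dusp29 (0.0457 and 0.226 CPM). Both were near the floor and are named after their values were seen. Of 9 phosphatases of other families that act on MAP kinases, 1 rose in each comparison (15.5%, 15.8% and 15.1% of all genes), Ppm1a by 0.44 in siNtc and 0.41 in siMk5, and Ptpn5, at 0.331 CPM or less on average, by 1.8 ± 0.7 in siErk3. After silencing, the only gene of these 6 lists to change was Mapk6, in the comparisons of siErk3 with siNtc and with siMk5.

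The genes whose log2 CPM most resembled a member's over the 18 libraries were Slc25a37 (r = 0.999) and Ereg (0.998) for Dusp4, Rassf1 and Pim3 (both 0.997) for Dusp5, and Gfod1 (0.996) and Pim3 (0.995) for Dusp6, among genes with a mean of at least 5 CPM. Pim3 was thus in the pair of nearest genes of both Dusp5 and Dusp6. For Dusp1 they were Pim1 (0.93) and Fzd7 (0.924), the lowest values of the family. For the other members r lay between 0.964 and 0.988, with Dnpep and Clpp for Dusp2, Zfp574 and Cpsf4 for Dusp7, Tacc2 and Ehd1 for Dusp8, Mfsd1 and Wdr81 for Dusp9, Slc12a4 and Adcy6 for Dusp10, and Tiparp and Ino80 for Dusp16. These correlations rest largely on the distance between the BSA and the PA libraries, which many genes share.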

How the data were processed

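RNA of 18 libraries (3 in each of 6 groups, grouped by the sample labels) was sequenced as stranded, poly(A)-selected read pairs. The authors deposited unnormalized counts of read pairs per gene. According to the methods, reads were checked with FastQC, trimmed with cutadapt and TrimGalore at a quality limit of 25 and aligned with STAR to GRCm39, and duplicates were marked. The file header gives featureCounts 2.0.0 with Ensembl 105, strand setting 2 and a minimum mapping quality of 3, so pairs within exons of several genes of a strand stayed unassigned. The submitters' processing notes name mm10 as build. In their other table the authors deposited log2 values, which equal log2(count/factor + 1), with 1 factor per library, to a relative deviation of 3.6e-14, although its name gives another unit, and no result rests on it. There were 0 columns of other samples.

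Counts were analysed with edgeR 4.0.16 (TMM, quasi-likelihood, 1 coefficient per group over all 18 libraries) in R 4.3.3 with limma 3.58.1. A gene was tested from a total of 10 counts upward, and the criteria were those of the methods, a Benjamini-Hochberg FDR below 0.05 over all genes tested and a fold change above 1.3. Standard errors are the log2 fold change divided by the square root of F, and intervals are 95% by the t distribution. Log2 CPM had a prior count of 2, and TPM used the exonic lengths of the count table. The methods state DESeq2, which was run here as an alternative (1.42.0). Other alternatives were size factors of DESeq2, no filter on low counts or a stricter one (filterByExpr, or 10 counts or more per library), a block for the replicate number, the FDR without the fold limit, the 18S share as a covariate, a fit of the compared groups alone, and omission of any 1 library. For the spread, they were the coefficient of variation of CPM and a prior count of 0.5. The scripts were checked on simulated counts.

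Symbols came from GENCODE M39, which named 21601 of the 21772 genes tested. The members, gene lists and markers were chosen with earlier results of these data known, and the correlations of deviations after the data were seen. From each list the text names, per comparison, up to 3 changed genes with the smallest adjusted p, and for each member the 2 genes with the highest Pearson correlation of log2 CPM. Dusp13a and Spry3 were not in the count table and Dusp21 was below the filter. Counting error falls mainly on Dusp2 and Dusp9, whose lowest counts in a library were 22 and 48, and then on Dusp5, with 100 to 220 counts in the BSA libraries. Figures were drawn with matplotlib 3.10.9 in Python 3.11.15. Proteomic data were not used here.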

Additional observations from a re-analysis of the deposited data

How the results depend on the processing

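The number of members changed with PA lay between 9 and 10 in siNtc, 8 and 10 in siErk3 and 8 and 10 in siMk5 over all alternatives, and that in the silencing, direct and interaction comparisons was 0 in each. Under a replicate block the counts for PA were 9, 9 and 8. Samples with the same number had correlations of their deviations between −0.61 and 0.52 and no comparison had all above 0.1, so the numbers were not read as pairs. Of the values of single called genes, Mapk6 and Mapkapk5 included, 205 of 216 kept their call with 1 library left out and 318 of 324 under the other alternatives, and 0 reversed. The lost ones concern Dusp1, Dusp7 and Dusp8 in siErk3 and Mapkapk5 in siErk3 and siMk5. The number of members with a larger spread in PA was between 5 and 8 with 1 library left out and 6 under the other alternatives. Among the members the 95% intervals in the silencing comparisons with BSA were widest for Dusp5 and Dusp2, with an estimate of spread shared by the BSA and PA libraries.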

Other observations

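The order of the PA libraries seen for Dusp4, Dusp5 and Dusp6 also appeared over 10544 genes with a mean of at least 5 CPM. Each PA library's deviations from its group mean were correlated, across genes, with the log2 response to PA averaged over the siRNAs other than its own. Genes are not independent replicates. In siNtc PA 1 to 3 r was −0.54, −0.05 and 0.56, in siErk3 PA 0.51, −0.06 and −0.54, and in siMk5 PA 0.53, −0.15 and −0.40. The 3 libraries with the highest r, siNtc PA 3, siErk3 PA 1 and siMk5 PA 1, were those in which 10 of 10 members lay above their group mean, and the slopes lay between −0.08 and 0.09. All 10 members had log2 fold changes above 0 with PA, so this match is not a separate result about them. The response set beside a library left out its own siRNA but used the PA libraries of the others. This comparison was chosen after the data were seen.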
